A study of Mus musculus with 6 samples.

Results

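The genes described here make cholesterol, sense it, move it within the cell, take it up and export it. The members were 32 mouse genes matched by gene symbol, current or older, and 29 of the 32 had a probe set carrying their symbol alone, of 18193 genes measured in all. Each probe set holds several short probes for 1 transcript. Acat2, Soat1 and Nr1h2 were not analysed here. The study measured total RNA from muscle on Affymetrix Mouse Genome 430 2.0 arrays, with 1 mouse per array. The 3 control mice were labelled wild type (WT) and the other 3 carried the SIRT6KO label (KO), a knockout of SIRT6, a chromatin-bound deacylase. Both groups had the 129SvJ background. The labels used here state no age, sex, diet, named muscle or allele.

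Cells build cholesterol from acetyl-CoA, first along the mevalonate branch to farnesyl diphosphate and then from squalene through lanosterol to the sterol itself. When membrane sterol is low, the escort protein Scap carries the transcription factor encoded by Srebf2 out of the endoplasmic reticulum, and it switches on the enzymes of both branches. When sterol is high, Insig proteins hold Scap back, and oxidised sterols activate the liver X receptors, which switch on the exporters Abca1 and Abcg1 and the ubiquitin ligase Mylip. Muscle makes little cholesterol next to liver, and takes part of its supply from lipoproteins.

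The deposited values were linear intensities, with array medians between 10.8 and 15 and between 51.71% and 60.34% of probe sets under 16, the offset added before taking log2. WT 1 was the brightest array, with a top reading of 17905.4 against 10099.5 to 10573.2 in the others. Xist, the RNA of the inactive X chromosome, read 31.3, 24.5 and 29.6 in the WT arrays and 715.4, 1165.7 and 1138.9 in the KO arrays (limma, adjusted p = 0.00401), so genotype and sex cannot be told apart in any value below. The Sirt6 probe set read 23.2, 15.1 and 21.3 in WT and 22.6, 18.3 and 13.7 in KO (adjusted p = 0.947) and does not check the labels, since where it lies relative to the deleted part is not given in the sources used here. WT and KO below mean the arrays so labelled. Skeletal muscle markers were bright throughout, their 7 genes summing to 57840 to 96200 in WT and 58760 to 59650 in KO.

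No cholesterol gene passed the test. limma, adjusted by Benjamini-Hochberg across the array, called 4 of 45037 probe sets (0.00888%) at an adjusted p under 0.05. By gene, each at its brightest probe set, it called 1 of 18193, Xist, and 0 of the 29 members. Adjusted p of the members ran from 0.342 to 1.0. The members were then described by role, in counts and medians chosen after seeing the data. Lower or higher in KO refers here and below to the mean of log2(intensity + 16). Of the 17 synthesis enzymes measured, 14 had a lower KO mean, against 53.2% of all genes, and for 7 of the 17 (41.2%) all 3 KO arrays lay below all 3 WT arrays, against 8.33% of all genes. None had all KO arrays above all WT arrays, which 4.51% of all genes did. Of the 12 members with other roles, 4 had a lower KO mean, 0 were separated downwards, and Abca1 and Mylip were separated upwards. Without adjustment 9 of the 29 had p under 0.05, 6 lower and 3 higher in KO, where the shares of all genes were 6.28% lower and 3.52% higher. The median log2 change, KO minus WT, was -0.39 over the enzymes, 0.09 over the other members and -0.02 over all genes. In whole muscle, fewer cells of a type and less RNA per cell cannot be told apart.

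**Figure D1:**
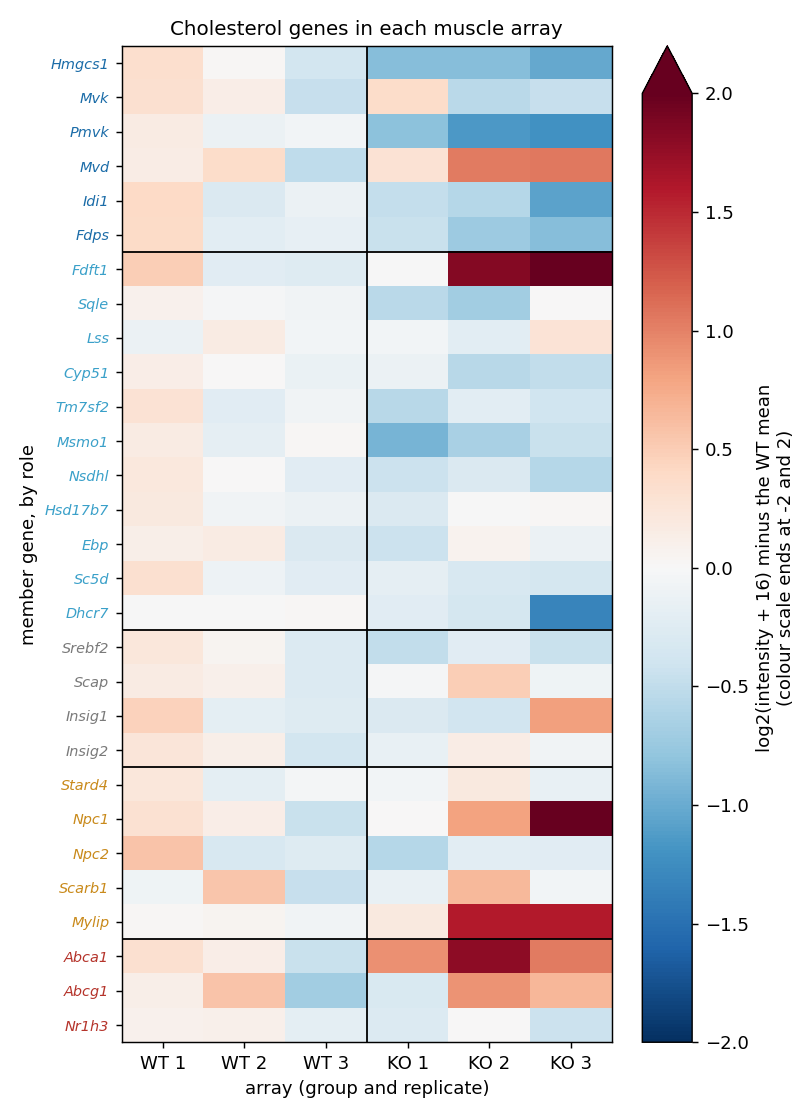
Each row is a cholesterol gene, grouped by role from the early mevalonate enzymes at the top to export at the bottom, and each column is an array; colour gives log2(intensity + 16) minus the WT mean of that gene. Hmgcs1, Pmvk, Idi1, Fdps, Msmo1, Nsdhl and Dhcr7 are below all WT arrays in every KO array, Abca1 and Mylip are above them, and KO 3 is far above the rest for Fdft1 and Npc1.

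Of the 7 enzymes separated downwards, 4 belonged to the early mevalonate branch. Hmgcs1 makes HMG-CoA, the precursor of mevalonate, and read 328.5, 262.0 and 196.8 in WT against 135.8, 136.1 and 117.8 in KO. Its groups did not overlap, and the KO arrays were also closer to each other (SD 10.5, n = 3) than the WT arrays (SD 65.9, n = 3). The KO level was 1.88-fold lower on the log2(intensity + 16) scale, a log2 change of -0.91 (SE 0.194, 95% interval -1.37 to -0.45, adjusted p = 0.511). All 5 Hmgcs1 probe sets had a lower KO mean, and 3 of the 5 were separated. The second brightest of the 5 read 149.4, 103.8 and 114.1 in WT and 57.7, 77.9 and 40.7 in KO, a log2 change of -0.91. The third brightest overlapped, at 100.7, 90.0 and 66.9 in WT and 73.9, 87.8 and 45.8 in KO, a log2 change of -0.28. The dimmest stayed below 8 in all arrays.

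Pmvk, the kinase that adds the second phosphate to mevalonate, read 32.5, 24.1 and 26.0 in WT and 8.6, 3.5 and 2.7 in KO. The highest KO array was far under the lowest WT array. The log2 change was -1.06 (95% interval -1.44 to -0.69, adjusted p = 0.342), the lowest adjusted p among the members, and a single probe set carried the gene. Because the offset is larger than the KO readings, the fold of 2.09 on this scale understates the ratio of the deposited means, 27.5 ± 4.41 for WT (SD, n = 3) against 4.93 ± 3.20 for KO (SD, n = 3). Mvk, the kinase of the preceding step, read 26.8, 21.6 and 9.0 against 28.1, 7.6 and 8.8, so its groups overlapped fully (log2 change -0.21, adjusted p = 0.896, and -0.05 without KO 2). Its other probe set had a log2 change of 0.16.

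Idi1 isomerises the isoprene unit built from mevalonate and read 37.5, 17.4 and 21.7 in WT and 13.3, 11.5 and 3.4 in KO (log2 change -0.70, 95% interval -1.27 to -0.14, adjusted p = 0.56). Both of its probe sets were separated downwards. Fdps joins these units into farnesyl diphosphate and read 99.4, 60.6 and 63.1 against 49.2, 37.4 and 33.3 (log2 change -0.68, 95% interval -1.16 to -0.19, adjusted p = 0.529). All KO arrays were below all WT arrays. A second Fdps probe set stayed below 4 in all arrays. Mvd, which decarboxylates the doubly phosphorylated mevalonate, went against the other enzymes of this branch. It read 13.4, 18.3 and 2.6 in WT and 16.5, 38.6 and 39.4 in KO, with KO 1 inside the WT range (log2 change 0.80, 95% interval 0.08 to 1.51, adjusted p = 0.564). Both Mvd probe sets had the higher KO mean. Over the 6 enzymes of this branch the median log2 change was -0.69, with 4 of 6 separated downwards.

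**Figure D2:**
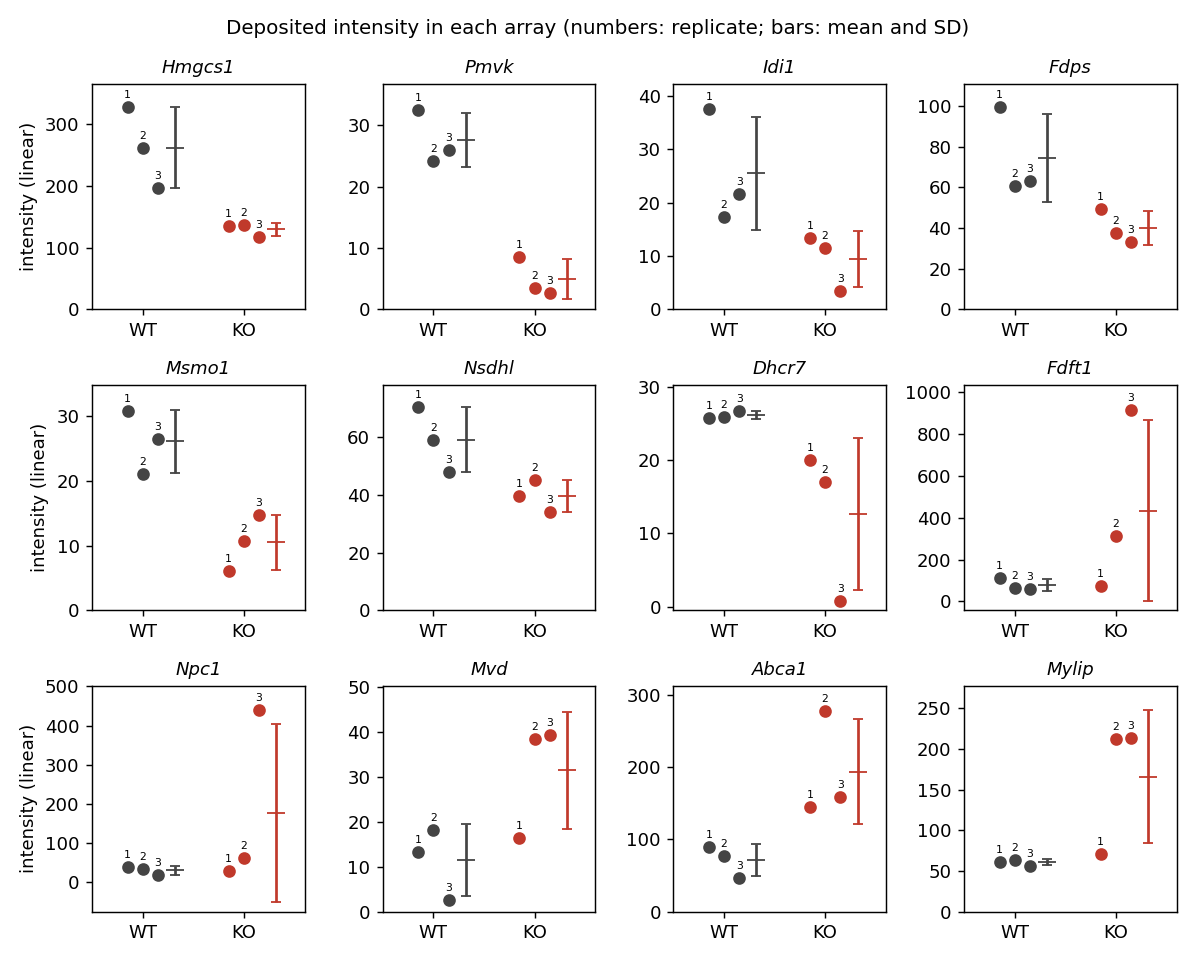
Each panel shows one gene's deposited linear intensity in the 3 WT and 3 KO arrays, with the replicate number at each point and a bar for the mean and SD. In the first 7 panels all KO points lie below all WT points; in Fdft1 and Npc1, KO 3 is the highest array and KO 1 lies inside the WT range.

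Among the enzymes from squalene to cholesterol the median log2 change was -0.39, with 9 of 11 lower in KO; its difference from the early branch was not tested. Msmo1, a monooxygenase that acts on methyl groups of the sterol ring after Cyp51, read 30.8, 21.1 and 26.5 in WT and 6.1, 10.7 and 14.7 in KO. The groups were separated (log2 change -0.68, 95% interval -1.08 to -0.28, adjusted p = 0.524), though the second Msmo1 probe set stayed under 13 in all arrays with a change of 0.10. Nsdhl, an X-linked dehydrogenase of the same demethylation, read 70.4, 59.0 and 47.8 against 39.5, 45.0 and 33.9. The highest KO array, 45.0, was just under the lowest WT array (log2 change -0.43, 95% interval -0.81 to -0.05, adjusted p = 0.564). Dhcr7, the reductase of the last step of one route to cholesterol, read 25.7, 25.9 and 26.7 in WT and 20.0, 17.0 and 0.8 in KO. Its WT arrays differed by 1 unit while KO 3 was near 0, and the log2 change of -0.63 (95% interval -1.32 to 0.05, adjusted p = 0.602) became -0.29 without KO 3.

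The other enzymes of this branch overlapped between the groups. Sqle, the epoxidase that prepares squalene for ring closure, read 21.4, 18.5 and 17.6 against 8.3, 5.6 and 19.2, with KO 3 inside the WT range (log2 change -0.41, adjusted p = 0.622). Cyp51, which demethylates lanosterol, read 12.7, 10.1 and 7.7 against 8.1, 1.8 and 2.6 and was below the offset in every array (log2 change -0.39, adjusted p = 0.584). Tm7sf2, a sterol reductase, read 46.9, 28.0 and 32.8 against 19.0, 28.3 and 22.9, with KO 2 just above the lowest WT array (log2 change -0.39, adjusted p = 0.603). Sc5d, a desaturase, had a lower KO mean in 3 of 3 probe sets, the brightest reading 36.2, 23.0 and 19.9 against 20.8, 17.4 and 16.9 (log2 change -0.29, adjusted p = 0.687). Lss, which closes squalene epoxide into lanosterol, read 14.0, 20.1 and 15.3 against 15.3, 11.9 and 23.2 (log2 change 0.005, 95% interval -0.39 to 0.40). Hsd17b7, a ketosterol reductase, read 32.2, 24.0 and 22.7 against 18.5, 25.7 and 26.7 (log2 change -0.09, 95% interval -0.45 to 0.27). Ebp, an X-linked sterol isomerase, read 56.2, 58.2 and 38.3 against 33.4, 53.6 and 45.0 (log2 change -0.16, 95% interval -0.61 to 0.30). For these last genes the KO arrays lay on both sides of at least 1 WT array.

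Fdft1, squalene synthase, the enzyme that commits farnesyl diphosphate to sterols, had a higher KO mean and varied widely between the KO arrays. It read 113.3, 62.8 and 60.7 in WT and 75.7, 312.4 and 912.7 in KO. KO 1 lay inside the WT range, and KO 2 and KO 3 were far above it. The log2 change was 1.72 (95% interval -0.12 to 3.56, adjusted p = 0.6). A second Fdft1 probe set had the same order of KO arrays, 38.7, 163.4 and 518.3, against 71.1, 39.1 and 31.5 in WT, while the other 2 were dim, with changes of -0.34 and 0.10. Probe sets ending in _x_at, as this second one and the second brightest of Hmgcs1 do, or in _s_at can bind related transcripts. Without KO 3 the log2 change was 0.91, and without KO 1 it was 2.58.

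For the 4 separated enzymes that have a single promoter window, the 250 bases before the RefSeq transcript start (build GRCm38.p6) were read to show the letters their promoters hold. Capitals mark CCAAT on either strand (ATTGG on the reverse), the box bound by NF-Y, a factor that works beside the sterol factor, and TCACNCCAC, a form of the sterol regulatory element. The windows are chr13:119690101-119690350 for Hmgcs1, chr13:8885356-8885605 for Idi1, chr8:64733579-64733828 for Msmo1, on the minus strand, and chrX:72918271-72918520 for Nsdhl, the others on the plus strand.
Hmgcs1: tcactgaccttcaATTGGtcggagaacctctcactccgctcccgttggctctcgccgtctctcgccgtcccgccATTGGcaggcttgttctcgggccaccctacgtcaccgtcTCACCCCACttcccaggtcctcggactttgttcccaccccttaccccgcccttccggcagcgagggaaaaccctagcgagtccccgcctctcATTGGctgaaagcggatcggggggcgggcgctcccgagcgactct
Idi1: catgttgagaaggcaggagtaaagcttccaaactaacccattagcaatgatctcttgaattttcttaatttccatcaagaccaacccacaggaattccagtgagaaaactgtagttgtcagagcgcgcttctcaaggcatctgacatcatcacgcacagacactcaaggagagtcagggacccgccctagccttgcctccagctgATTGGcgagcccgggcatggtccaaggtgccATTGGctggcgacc
Msmo1: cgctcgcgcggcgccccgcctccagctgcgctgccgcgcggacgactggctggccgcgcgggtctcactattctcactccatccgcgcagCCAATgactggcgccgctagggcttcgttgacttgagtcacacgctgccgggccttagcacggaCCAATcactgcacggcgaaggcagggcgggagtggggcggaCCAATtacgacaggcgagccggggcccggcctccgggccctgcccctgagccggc
Nsdhl: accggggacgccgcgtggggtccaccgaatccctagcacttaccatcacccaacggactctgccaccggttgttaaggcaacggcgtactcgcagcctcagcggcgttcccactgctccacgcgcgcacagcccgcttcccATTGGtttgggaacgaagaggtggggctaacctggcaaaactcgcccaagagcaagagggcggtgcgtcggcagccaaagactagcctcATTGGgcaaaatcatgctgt

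Of the 32 members, 25 had a window in the table, and 14 of the 15 enzymes among them held CCAAT (93.3%), against 37.5% of the 27025 genes with a window and 6 of 10 (60.0%) of the other members. Mvk, Mvd and Lss, whose groups overlapped, held it too, so the letters do not part the separated enzymes from the rest. GGGCGG, the core of an Sp1 box, was in 14 of the 15 enzymes (93.3%), 7 of 10 (70.0%) of the other members and 35.4% of genes with a window. Hmgcs1 alone among the 25 members held TCACNCCAC, 137 bases before its start, where 1.22% of all genes hold it. The shorter CACNCCAC, which every TCACNCCAC also contains, was in Acat2, Hmgcs1 and Insig1, 3 of 25 (12.0%), against 6.05% of all genes. Both strands were searched, and a match is only a run of letters.

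None of the 4 sensing genes was separated between the groups. Srebf2, the gene of the sterol-responsive factor, read 63.6, 54.7 and 40.8 in WT and 32.4, 42.5 and 34.2 in KO, with 1 KO array above the lowest WT array (log2 change -0.39, 95% interval -0.79 to 0.01, adjusted p = 0.588). Both of its probe sets were lower in KO. Scap read 51.9, 48.9 and 33.7 against 43.2, 68.8 and 40.7 (log2 change 0.13, adjusted p = 0.916). Insig1, an anchor that is itself induced by the sterol factor, read 56.5, 30.0 and 28.5 against 27.3, 24.7 and 77.9, so the 3 KO arrays included both the lowest and the highest readings (log2 change 0.05, adjusted p = 0.989). Insig2, the other anchor, read 149.6, 136.0 and 93.0 against 110.0, 138.9 and 117.0 (log2 change -0.03, adjusted p = 0.99), and its other 2 probe sets had changes of 0.16 and 0.12.

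**Figure D3:**
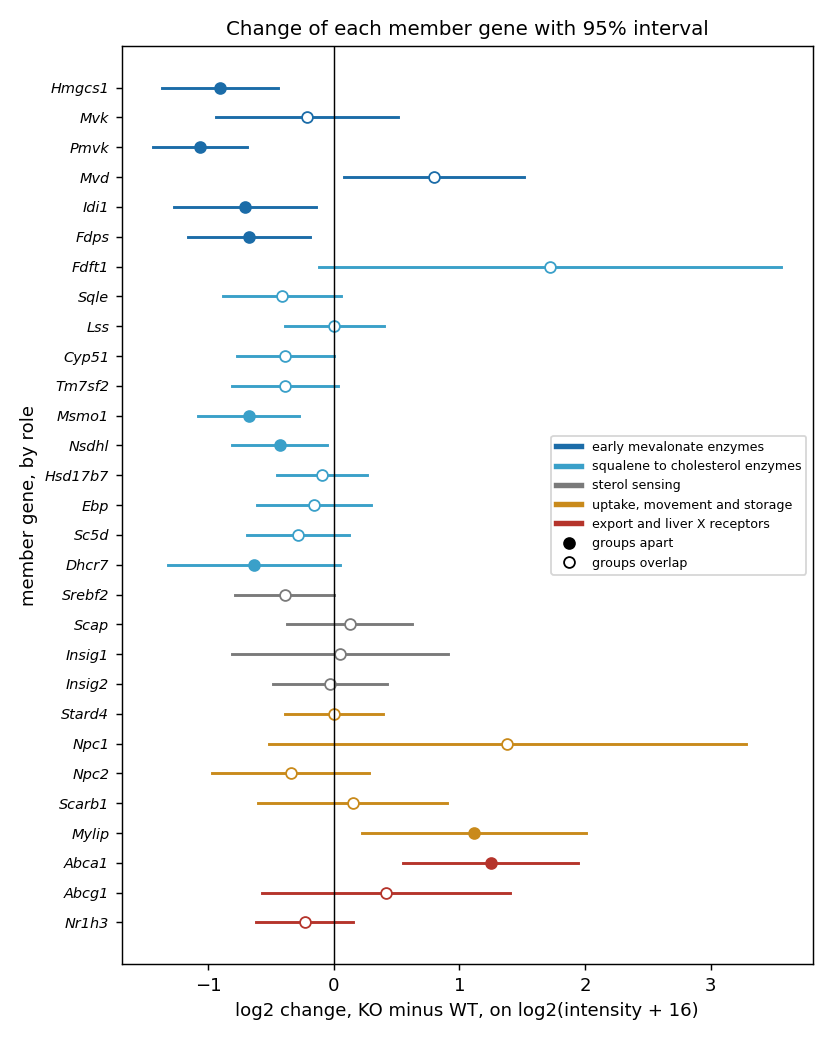
Points give the log2 change of each member, KO minus WT, with its 95% interval; filled points are genes whose groups did not overlap. Intervals of Hmgcs1, Pmvk, Idi1, Fdps, Msmo1 and Nsdhl lie below 0 and those of Mvd, Mylip and Abca1 above 0, and the widest belong to Fdft1 and Npc1.

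Abca1 and Mylip were the 2 members separated upwards, and Abcg1 overlapped. All 3 are liver X receptor targets, a label given here to members only. Other targets of these receptors were not picked out, and the targets were not examined as a set, so no pattern of them can be read here. Abca1, the pump that loads cholesterol onto apolipoprotein A-I, read 89.7, 76.9 and 46.7 in WT and 144.7, 277.9 and 159.4 in KO. Every KO array exceeded every WT array, and the KO level was 2.38-fold higher on the log2(intensity + 16) scale (log2 change 1.25, 95% interval 0.56 to 1.95, adjusted p = 0.511). All 3 Abca1 probe sets were separated upwards, the other 2 with changes of 0.63 and 0.72. Mylip, a ubiquitin ligase that sends lipoprotein receptors for degradation, read 61.5, 63.9 and 56.6 in WT and 71.3, 212.9 and 213.1 in KO. The WT arrays were tight (60.7 ± 3.72, SD, n = 3), KO 1 was just above them and the other KO arrays were far above (log2 change 1.12, 95% interval 0.23 to 2.01, adjusted p = 0.556). Abcg1, an exporter to high-density lipoprotein, read 18.7, 31.8 and 3.8 against 9.9, 43.5 and 34.6, overlapping (log2 change 0.42, adjusted p = 0.835, and 0.07 without WT 3). Nr1h3, a liver X receptor, read 29.5, 30.0 and 21.5 against 19.4, 27.0 and 15.8 (log2 change -0.23, adjusted p = 0.739).

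The windows of the separated pair are chr4:53159896-53160145, minus strand, and chr13:45389492-45389741, plus strand, and are shown because Abca1 holds no CCAAT and Mylip holds 3, again in capitals.
Abca1: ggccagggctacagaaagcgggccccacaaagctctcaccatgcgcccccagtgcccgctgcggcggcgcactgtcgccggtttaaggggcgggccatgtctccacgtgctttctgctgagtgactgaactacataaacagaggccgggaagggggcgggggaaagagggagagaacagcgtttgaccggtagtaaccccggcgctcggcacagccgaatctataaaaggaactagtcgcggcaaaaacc
Mylip: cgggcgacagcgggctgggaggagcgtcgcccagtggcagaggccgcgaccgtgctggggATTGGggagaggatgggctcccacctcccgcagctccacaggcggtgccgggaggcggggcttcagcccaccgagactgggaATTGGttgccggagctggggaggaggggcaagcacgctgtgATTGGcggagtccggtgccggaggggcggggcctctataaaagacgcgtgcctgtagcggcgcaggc

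Among the genes of uptake and movement, Npc1, the lysosomal membrane protein that releases cholesterol from endocytosed lipoprotein, read 39.9, 33.4 and 17.2 in WT and 29.3, 62.6 and 439.4 in KO. KO 1 was inside the WT range and KO 3 was far above all others, as for Fdft1 (log2 change 1.38, 95% interval -0.52 to 3.28, adjusted p = 0.674, and 0.40 without KO 3). Npc2, its soluble partner, read 326.4, 167.8 and 175.8 against 137.9, 181.5 and 179.1, with WT 1 the highest array (log2 change -0.34, adjusted p = 0.767, and -0.05 without WT 1). Scarb1, a high-density lipoprotein receptor, read 82.5, 137.3 and 60.1 against 78.8, 148.3 and 85.1 (log2 change 0.15, adjusted p = 0.941), with its 3 probe sets all slightly higher in KO. Stard4, a cytosolic sterol carrier, read 62.7, 42.6 and 49.5 against 48.9, 61.1 and 44.5 (log2 change 0.001, 95% interval -0.39 to 0.39, adjusted p = 1.0). The last value does not show that the level was the same, only that any change beyond about 0.39 either way lies outside the interval.

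**Figure D4:**
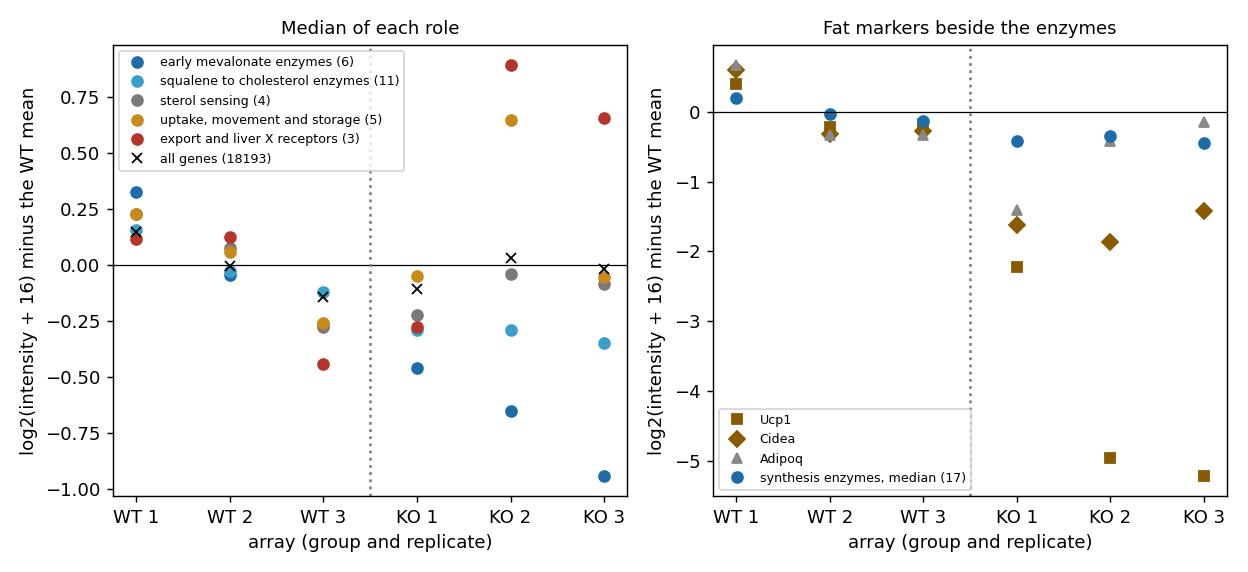
Left, the median over each role of log2(intensity + 16) minus each gene's WT mean, for every array, with all genes as crosses; right, fat markers in the same arrays beside the enzyme median. The enzyme medians of the 3 KO arrays lie below those of all WT arrays, as do Ucp1 and Cidea.

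Array by array, the median of the 17 enzymes against their WT means was 0.20, -0.03 and -0.14 in WT and -0.42, -0.35 and -0.45 in KO, while all genes ran from 0.15, -0.002 and -0.14 in WT to -0.10, 0.03 and -0.01 in KO. The median of the 3 export and receptor genes, Abca1, Abcg1 and Nr1h3, was -0.27, 0.89 and 0.66 in KO, although Abca1 itself was above every WT array in KO 1 too. After centring each array on its median, 9 members were separated downwards and 2 upwards, where 8.67% and 7.28% of all genes were. After quantile normalization there were 9 and 4, against 10.3% and 8.82% of all genes. Both settings added Tm7sf2 and Srebf2 to the genes separated downwards; quantile normalization dropped Dhcr7, added Nr1h3 downwards, and added Mvd and Npc1 upwards. Refitting only probe sets above the median level called 79 of 22518 (0.351%) and 0 of 28 members, the closest being Pmvk (adjusted p = 0.0641), Abca1 (0.0749) and Hmgcs1 (0.13).

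No marker of fat or connective tissue passed the test, but some were separated between the same groups. Ucp1, the brown fat uncoupler, read 877.2, 570.3 and 586.1 in WT and 129.9, 5.9 and 2.3 in KO (adjusted p = 0.436). Cidea, a lipid droplet protein of brown fat, read 824.0, 429.9 and 442.0 against 164.0, 135.8 and 191.2 (adjusted p = 0.384). Of 8 adipocyte markers listed, 6 were measured and all 6 had a lower KO mean log2 value, 3 of them separated. The mean intensity of Cidec was nevertheless higher in KO (75.4 against 73.7). Their summed level was 3100 to 6136 in WT and 2366 to 4126 in KO. Most of that sum was Fabp4, which overlapped, at 5040.3, 3273.4 and 2568.7 in WT and 2115.2, 3692.5 and 2950.7 in KO. The 7 of 7 brown fat markers had a lower KO mean log2 value, 2 separated and Elovl3 by 0.01 only. They summed to 4942 to 8119 in WT and 4019 to 5116 in KO. Most of that sum was Cox8b, at 4393.2, 3293.6 and 2624.8 in WT and 3230.7, 3434.7 and 2838.7 in KO. Cox7a1 read 1469.9, 1415.4 and 898.3 in KO. Both stayed bright in KO 2 and KO 3, where Ucp1 read 5.9 and 2.3. Neither the sum nor the count of 7 therefore measures brown fat alone. The 7 skeletal muscle markers were also all lower in KO, 0 of them separated. Their median log2 change was -0.205, against -0.184 for the brown fat markers. Of all genes, 53.2% were lower in KO and 8.33% were separated downwards. Fibroblast and tendon markers, 5 of 6 lower and 2 separated downwards (Col1a1 and Tnmd), summed to 6035 to 10240 and 3018 to 6357. Of the other lists, macrophage markers (7 of 7 measured) summed to 370.2 to 552.1 and 304.4 to 496.1, Schwann cell markers (6 of 9) to 319.8 to 522 and 428.2 to 874.9, endothelial markers (4 of 4) to 325.8 to 400.2 and 293.3 to 534.5, hepatocyte markers (4 of 5) to 52.3 to 434 and 83.7 to 152.2, and red cell markers (2 of 3) to 42.8 to 71.4 and 29.7 to 55.0. In those other lists the macrophage marker Cd163 was separated upwards and the Schwann cell marker Gjb1, which was dim, downwards. No other marker in them was separated. Adipoq, a general adipocyte gene, overlapped, at 606.9, 295.6 and 293.9 against 131.0, 277.8 and 339.5. What part fat cells, connective tissue, array brightness or sex play in the enzyme values was not tested.

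Beyond these members, 51 of 56 other sterol and isoprenoid genes were measured, and 28 (54.9%) were lower and 23 higher in KO, near the 53.2% of all genes that were lower, with a median log2 change of -0.04. In this list 2 genes (3.92%) were separated downwards and 3 (5.88%) upwards, against 8.33% and 4.51% of all genes, and 0 passed the test. Cyp39a1, an oxysterol hydroxylase that makes bile acid precursors, read 15.2, 19.2 and 14.8 in WT and 41.5, 36.3 and 44.3 in KO (log2 change 0.81, adjusted p = 0.364). Rnf145, a ubiquitin ligase that acts on Scap, read 35.9, 41.6 and 33.1 against 50.6, 80.1 and 50.5 (adjusted p = 0.563). Gramd1b, a sterol transfer protein, read 40.0, 38.7 and 17.6 against 43.0, 48.8 and 55.5 (adjusted p = 0.611). These 3 genes were higher in every KO array than in any WT array. Nceh1, a hydrolase of cholesterol esters, read 165.6, 164.4 and 91.5 against 84.0, 88.6 and 77.0 (adjusted p = 0.564), and was lower in every KO array. Tmem97, a sterol-responsive membrane protein, was dim and also separated downwards, at 9.1, 13.3 and 5.4 against 1.2, 4.8 and 3.0 (adjusted p = 0.573). Cd36, the fatty acid and lipoprotein receptor (log2 change 0.81, adjusted p = 0.584), Lbr, a sterol reductase of the nuclear envelope (0.39, adjusted p = 0.592), and Abcg4, a sterol exporter (-0.51, adjusted p = 0.687, and -0.19 without KO 1), overlapped between groups. Cyp27a1 and Rxra, chosen after their values were seen, also had KO 3 as their highest array, like Fdft1 and Npc1. The share of all genes with KO 3 highest was not counted. Cyp27a1, a sterol hydroxylase, read 114.7, 87.3 and 66.3 against 93.8, 104.0 and 308.7, and Rxra, the partner of the liver X receptors, 154.8, 104.1 and 93.3 against 90.1, 111.9 and 331.0.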

How the data were processed

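Per the labels' protocols, RNA was prepared with TriPure and carried a biotin label. The authors deposited 1 linear intensity per probe set and array. The software, background correction and scaling behind it were not given in the sources used here; 0 further columns were left unused. Of 45101 probe sets, 64 controls were left out and 45037 tested, as log2(intensity + 16) with no normalization, in limma 3.58.1 (lmFit and eBayes, two-sided) under R 4.3.3, with p-values adjusted by Benjamini-Hochberg across the array and called under 0.05. The fit was tested on simulated data. A fold on this scale understates changes of dim probe sets, and the number of arrays, 3 a group, limits precision. Precision is therefore that of the spread between these animals.

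The platform annotation gave 1 symbol for 34945 probe sets, several for 932, and did not list 9160. Of the probe sets with 1 symbol, 34741 matched a RefSeq gene. A gene was represented by its brightest probe set on average over the 6 arrays. The members and lists were chosen with earlier results of these data known. Named were all members, up to 8 related genes with the lowest p, markers and Xist. Lists were fat, brown fat, Schwann cell, macrophage, hepatocyte, fibroblast and tendon, endothelial, red cell and skeletal muscle markers. Replicate numbers did not pair the arrays: same-number correlations of deviations were -0.01, 0.02 and -0.04. Promoters came from RefSeq (GRCm38.p6), searched for exact letters in 250 bases before each start. Alternatives were offsets of 1 and 64, median centring, quantile normalization, the replicate block, a robust variance with trend, a refit of the brighter probe sets (above the median level), a threshold of 0.1, averaging all probe sets per gene, and leaving out each array. Counts of separated genes and the enzyme median under them were chosen after seeing the data.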

Additional observations from a re-analysis of the deposited data

How the results depend on the processing

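No member passed the test under any alternative run, including a threshold of 0.1 and the replicate block, each with 0 members past it. The member median was -0.21 in the main fit, and the replicate block cannot change it, since the groups are balanced over replicate numbers. It was -0.33 to -0.05 with 1 array left out. The enzyme median, -0.39, stayed below 0 throughout, at -0.58 with offset 1, -0.15 with offset 64 and -0.44 to -0.30 with 1 array left out. Members separated downwards numbered 7 to 12 with 1 array left out, the most without WT 3; those separated upwards numbered 2 to 6, the most without KO 1, and 4 after quantile normalization. Leaving out an array leaves fewer values to overlap. The share of all genes separated was not counted there, so the counts with 1 array left out cannot be read as a result about the members. Of 553 gene values over 37 genes, 24 reversed, all in 7 genes with small changes. Values under the robust variance, the replicate block, the threshold of 0.1 and the brighter refit could not reverse. Those settings leave each log2 change as it was in the main fit. With 1 array left out, Stard4 ran from -0.10 to 0.12, Lss from -0.13 to 0.11, Hsd17b7 from -0.15 to 0.00413, Insig2 from -0.21 to 0.0945, Insig1 from -0.34 to 0.28, Scap from -0.0572 to 0.23 and Scarb1 from -0.10 to 0.43. Other values that moved by over 1.5 times without 1 array, with no change of sign, were Ebp (-0.02 without KO 1), Sc5d (-0.12 without WT 1), Tm7sf2 (-0.24 without WT 1), Sqle (-0.26 without KO 2), Nr1h3 (-0.13 without KO 3), Rnf145 (0.34 without KO 2) and Gramd1b (0.23 without WT 3), beside those given with their genes. Stard4 was -0.00774 after quantile normalization, -0.000165 with offset 64 and -0.0291 as the mean of its probe sets. Lss was -0.00661 with offset 1 and -0.0174 as the mean of its probe sets, and Insig2 was 0.085 as that mean. Separated members with several probe sets all had smaller changes as that mean. Hmgcs1 was -0.56, Idi1 -0.67, Fdps -0.33, Msmo1 -0.29 and Abca1 0.87. Fdft1, which overlapped, was 0.75 as that mean. Pmvk was -2.38 with offset 1 and -0.41 with offset 64. A larger offset shrinks the log2 change of a dim probe set, as for Pmvk. The cause of the other shifts was not tested. Intensities near the offset carry little signal over background.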
